A study of Mus musculus with 24 samples.

Results

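The pore-forming alpha subunits of the voltage-gated sodium channels were followed in sorted sensory neurons of the dorsal root ganglion (DRG), the ganglion that holds the cell bodies of the neurons that sense touch, heat, cold and pain. The members were the 8 genes Scn1a, Scn2a, Scn3a, Scn7a, Scn8a, Scn9a, Scn10a and Scn11a, taken by symbol from the 47643 gene identifiers counted in every library. All 8 passed the filter on low counts that left 17178 genes to be tested, and all 8 had reads in each of the 24 libraries. Cells came from L4 DRG on the side opposite to a sciatic nerve crush, 3 days after it, in male and female mice of 8 to 9 weeks and mixed C57BL/6 and AJ background. The control mice carried Nav1.8-Cre, one floxed and one intact Tsc2 allele (Tsc2 flox/+) and the Rosa26-ZsGreen reporter. The Nav-Tsc2 mice carried the same Cre and reporter with a floxed and a null Tsc2 allele (Tsc2 flox/null). Tsc2 encodes a subunit of the tuberous sclerosis complex, which restrains the growth-promoting kinase mTORC1. Because Cre acts on the floxed allele in both genotypes, the sorted control neurons are expected to keep 1 intact Tsc2 allele, and the cells of Nav-Tsc2 mice in which Cre is never active carry 1 as well. Each genotype had 4 mice, 2 of each sex, and each mouse gave 3 libraries of 100 ZsGreen-positive cells. Their counts were added up, and a mouse counted as 1 replicate.

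A sodium channel alpha subunit is a single long protein with 4 similar repeats that together form the pore, the voltage sensors and the inactivation gate, and its opening drives the upstroke of the action potential. In DRG neurons these channels are grouped by the puffer fish toxin tetrodotoxin (TTX). Nav1.1, Nav1.2, Nav1.3, Nav1.6 and Nav1.7, encoded by Scn1a, Scn2a, Scn3a, Scn8a and Scn9a, are blocked by it at low doses, whereas Nav1.8 and Nav1.9, encoded by Scn10a and Scn11a, are resistant and are characteristic of nociceptors, the neurons of pain. Scn7a encodes Nax, an atypical relative that lacks much of the charge of the voltage sensor and is known as a sensor of extracellular sodium. The Cre line itself uses the regulatory sequence of Scn10a, so all sorted cells descend from cells in which that sequence was once active, and ZsGreen marks that history rather than the present level of Scn10a.

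The genes lie in 3 places in the mouse genome (GRCm38). A cluster on chromosome 2 holds 5 of them, in the order Scn3a (65457118 to 65567627, minus strand), Scn2a (65620771 to 65767447, plus strand), Scn1a (66270778 to 66440840, minus strand), Scn9a (66480080 to 66634962, minus strand) and Scn7a (66673425 to 66784914, minus strand). Scn10a (119608456 to 119719322, minus strand) and Scn11a (119753759 to 119825456, minus strand) are neighbours on chromosome 9, and Scn8a stands alone on chromosome 15 (100869858 to 101045938, plus strand). The upstream sequences of Scn1a, Scn8a and Scn7a are shown because these 3 transcripts fell in Nav-Tsc2 neurons, and that of Scn9a because it sits between 2 of them on chromosome 2 and was not called. Each run is the 250 bases before the RefSeq start in GRCm38.p6, 5′ to 3′ on the strand of the gene, with matches to the motifs searched in capitals.
Scn1a, chr2:66440838-66441087, minus strand: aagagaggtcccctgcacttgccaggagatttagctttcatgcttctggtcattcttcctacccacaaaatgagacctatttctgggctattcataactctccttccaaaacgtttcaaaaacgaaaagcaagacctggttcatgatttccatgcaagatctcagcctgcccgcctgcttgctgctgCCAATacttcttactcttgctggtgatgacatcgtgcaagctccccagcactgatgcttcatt
Scn8a, chr15:100870395-100870644, plus strand: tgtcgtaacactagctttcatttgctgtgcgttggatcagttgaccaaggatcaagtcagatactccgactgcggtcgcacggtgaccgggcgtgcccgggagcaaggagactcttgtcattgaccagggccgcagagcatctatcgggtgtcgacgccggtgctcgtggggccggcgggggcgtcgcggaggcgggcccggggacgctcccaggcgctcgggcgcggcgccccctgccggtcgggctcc
Scn7a, chr2:66784911-66785160, minus strand: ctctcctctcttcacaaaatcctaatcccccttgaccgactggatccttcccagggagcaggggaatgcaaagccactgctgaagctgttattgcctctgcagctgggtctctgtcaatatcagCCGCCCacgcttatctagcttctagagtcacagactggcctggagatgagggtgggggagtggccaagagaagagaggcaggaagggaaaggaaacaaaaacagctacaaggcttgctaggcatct
Scn9a, chr2:66634963-66635212, minus strand: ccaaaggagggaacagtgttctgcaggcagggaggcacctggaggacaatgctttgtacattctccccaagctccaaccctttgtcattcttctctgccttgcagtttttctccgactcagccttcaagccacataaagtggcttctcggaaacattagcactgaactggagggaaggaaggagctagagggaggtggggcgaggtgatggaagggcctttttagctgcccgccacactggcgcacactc
RefSeq upstream sequences were held for 7 of the 8 genes, in 9 windows, with none for Scn3a. The 5 motifs searched, on both strands, were the TATA box (TATAAA), the CCAAT box (CCAAT), the GC box (GGGCGG), the E-box (CACGTG) and the AP-1 site (TGANTCA), none of which contains another. The capitals in Scn1a are a CCAAT match 63 bases before the start, and those in Scn7a a GGGCGG match on the opposite strand 126 bases before the start. Scn8a and Scn9a held no match to any of the 5. Over 32851 windows of the same length, the CCAAT box was found in 33.8%, the GC box in 32.7%, the TATA box in 12.4%, the AP-1 site in 6.75% and the E-box in 6.02%. The windows also differed in base composition. The Scn8a window was 68.0% G and C with 30 CG dinucleotides, more than 94.1% of all windows held, and it lies within an intron of the longer Scn8a gene model of GENCODE. A second RefSeq start of Scn8a, not printed, had a window of 53.2% G and C with 9 CG dinucleotides and no match. Scn1a had 46.8% G and C with 4 CG dinucleotides, Scn7a 53.2% with 3 and Scn9a 54.4% with 5, against medians of 52.4% and 6 over all windows. Of the Scn1a window, 211 bases lie in exons that GENCODE gives to Gm13629 or to Scn1a itself. Gm13629 is transcribed from the other strand, its exons also cover 180 bases of Scn9a exon, and the kit did not keep the strand of the RNA. Its own level was 0.344 CPM in control and 0.229 CPM in Nav-Tsc2 mice.

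Library totals ran from 8339220 to 34228180 counts on genes and mouse totals from 47959617 to 61290435. Reads that mapped to several places made up a median of 38.6% in control libraries and 40.6% in Nav-Tsc2 libraries and were not counted. No pair of libraries was identical. Library A of control replicate 3 stood apart. Its median Pearson correlation with the other control libraries was 0.822 over 6376 genes, against 0.865 to 0.925 for the other 11, while Nav-Tsc2 libraries ran from 0.930 to 0.959. It held 4.44 CPM, the count scaled to the library total, of Scn8a and 763 of Scn11a. These were the lowest Scn8a and the highest Scn11a value of all 24 libraries. The fold changes of the members that it moved and the correlations between members are given with and without it. Levels are CPM scaled by edgeR's TMM method throughout. The targeted gene Tsc2 was at 13.4, 24.7, 21.5 and 24.1 CPM in control replicates 1 to 4 and at 8.70, 8.51, 7.30 and 11.0 CPM in Nav-Tsc2 replicates 1 to 4, with no overlap (log2 fold change −1.24, SE 0.22, adjusted p = 0.00400, edgeR quasi-likelihood test). Scaled to neuron markers, Tsc2 was at −0.84 (adjusted p = 0.0987, edgeR). Of the Tsc2 exons, 7.20% overlap those of Pkd1 on the other strand.

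The sorted cells were checked against marker lists. Neuron markers were present in every mouse, with 3 of 9 lower in Nav-Tsc2 (summed level 28856 to 46732 CPM in control and 22908 to 28656 in Nav-Tsc2 mice, Map1b highest). Their median log2 fold change was 0.21 although their sum was lower. Sensory neuron markers had 1 of 5 lower and 1 higher (2966 to 3270 and 3072 to 3914 CPM, Prph highest, median log2 fold change −0.24), and markers of large A-fiber neurons 2 of 9 tested lower (3667 to 5355 and 2843 to 3986 CPM, Nefl highest). Peptidergic nociceptor markers had 3 of 5 lower (7202 to 17291 and 2721 to 5256 CPM, Calca highest) and those of Nppb itch neurons 3 of 5 lower (64.0 to 373 and 60.5 to 111 CPM, Osmr highest). Nonpeptidergic nociceptor markers had none of 5 called (374 to 1174 and 1188 to 1380 CPM, Mrgprd highest), and those of low-threshold C-fiber neurons 1 of 4 higher (28.9 to 279 and 164 to 1504 CPM, Th highest). Nerve injury genes had 6 of 7 higher (467 to 1100 and 2693 to 3698 CPM, Gal highest). Among markers of other cells, those of satellite glia and nonmyelinating Schwann cells had 1 of 7 lower (1377 to 1594 and 445 to 723 CPM, S100b highest) and those of myelinating Schwann cells none of 5 tested called (1312 to 1641 and 1474 to 1763 CPM, Pmp22 highest). Fibroblast markers had none of 6 called (73.1 to 236 and 121 to 196 CPM, Dcn highest). Of 7 endothelial markers only 3 passed the low-count filter, and 2 of these were higher (0.966 to 2.26 and 5.90 to 16.0 CPM, Flt1 highest). Of 7 macrophage markers 4 passed, and 1 was higher (0.669 to 4.54 and 7.90 to 17.4 CPM, Cx3cr1 highest). Of 4 mural cell markers 3 passed, and 2 were higher (4.39 to 45.6 and 18.5 to 147 CPM, Rgs5 highest). Red blood cell markers were at 1.63 to 2.80 and 0.473 to 0.672 CPM with none of 3 tested called, Alas2 highest. No marker was at 0 in all mice.

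In Nav-Tsc2 neurons 3 of the 8 alpha subunits were lower and none was higher. Scn1a fell to 27.6% of its control mean, Scn8a to 29.9% and Scn7a to 46.0%, and in each of these the 4 Nav-Tsc2 mice lay below all 4 control mice. Scn9a, Scn10a, Scn11a, Scn2a and Scn3a were not called at adjusted p under 0.05 with a log2 fold change beyond 0.5. Over all genes tested, 8.00% were called lower and 9.12% higher. For the 8 members the median on the log2 scale was −0.18 against 0.01 for all genes tested. These were bulk libraries of 100 cells, so fewer cells of one kind and less RNA per cell cannot be told apart. Scaling the libraries to the summed counts of the 9 neuron markers in place of TMM moved the median of all genes from 0.01 to 0.42 and the calls from 1374 lower and 1567 higher to 445 lower and 2677 higher, so that 85.7% of calls were higher against 53.3%. Map1b, itself called lower, held a mean of 19366 of 36250 CPM of that sum in control and 8765 of 26381 CPM in Nav-Tsc2 mice. The scaling to neuron markers therefore rests largely on this gene. The calls of Scn1a, Scn8a and Scn7a held under it, while the values of Scn2a, Scn9a and Scn10a turned from below to above 0 without being called.

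**Figure D1:**
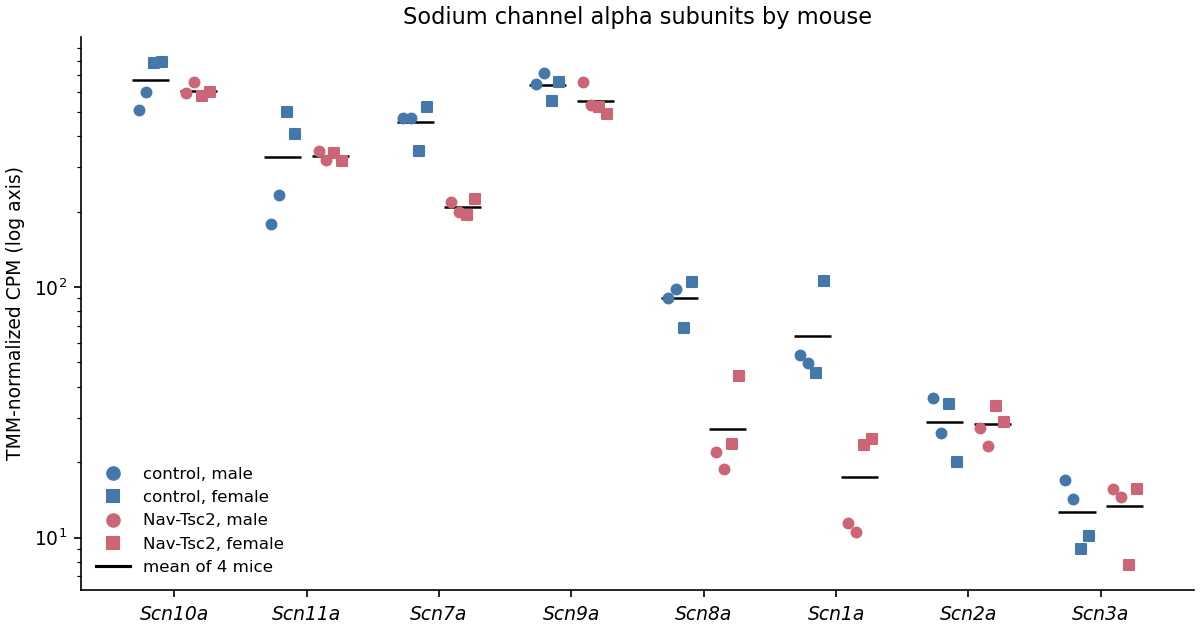
TMM-normalized CPM of the 8 alpha subunits on a log axis in 4 control mice (blue) and 4 Nav-Tsc2 mice (red), with circles for males, squares for females and bars for means. For Scn7a, Scn8a and Scn1a every red point lies below every blue one, as for Scn7a with 194 to 224 CPM against 349 to 523.

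Scn1a encodes Nav1.1, a TTX-sensitive channel known in the DRG mainly from myelinated neurons. It was at 53.6, 49.9, 45.5 and 105 CPM in control replicates 1 to 4. In Nav-Tsc2 replicates 1 to 4 it was at 11.5, 10.5, 23.4 and 24.7 CPM. The groups did not overlap, and control replicate 4 lay well above the other 3 control mice. The mean was 63.5 ± 28.0 CPM (SD, n = 4) in control and 17.5 ± 7.56 CPM (SD, n = 4) in Nav-Tsc2 mice, a log2 fold change of −1.86 (SE 0.36, 95% interval −2.75 to −0.97, adjusted p = 0.00649, edgeR). Without library A of control replicate 3 it was −1.93 (adjusted p = 0.00386, edgeR).

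Scn8a encodes Nav1.6, the main channel of the node of Ranvier and of the axon initial segment. Control replicates 1 to 4 had 90.7, 98.1, 68.4 and 105 CPM. Nav-Tsc2 replicates 1 to 4 had 21.9, 18.8, 23.5 and 43.99 CPM. Again no Nav-Tsc2 mouse reached the lowest control mouse, which was replicate 3, the mouse of the library that stood apart. The log2 fold change was −1.74 (SE 0.26, 95% interval −2.39 to −1.10, adjusted p = 0.00177, edgeR) with all libraries and −1.82 without that library, when the level of control replicate 3 was 88.1 CPM in place of 68.4. Since both Scn1a and Scn8a are known from neurons with myelinated axons, the large A-fiber list above was set beside them. Its called genes were Ldhb, a lactate dehydrogenase subunit, and Cntnap2, an adhesion protein of the region beside the node. Nefh, the heavy neurofilament that marks myelinated neurons, was at 662 ± 195 CPM in control and 486 ± 128 CPM in Nav-Tsc2 mice (SD, n = 4, adjusted p = 0.205, edgeR). Of the list, 2 genes at low levels lay higher in Nav-Tsc2 mice without being called, Pvalb at 1.08 ± 0.99 and 5.54 ± 4.28 CPM (SD, n = 4, adjusted p = 0.0525, edgeR) and Spp1 at 1.41 ± 2.30 and 6.45 ± 4.66 CPM (SD, n = 4, adjusted p = 0.305, edgeR). Nefh, Pvalb and Spp1 were named after their values were seen. The part of A-fiber neurons in the lower Scn1a and Scn8a levels was not tested.

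Scn7a, the gene of Nax, gave the steadiest difference of the 8. Its levels were 471, 471, 349 and 523 CPM in control replicates 1 to 4. They were 218, 199, 194 and 224 CPM in Nav-Tsc2 replicates 1 to 4. The mice of each genotype lay close together, with a mean of 454 ± 73.8 CPM in control and 209 ± 14.5 CPM in Nav-Tsc2 mice (SD, n = 4), and the lowest control mouse was replicate 3. Without library A of that mouse its level was 374 CPM. The log2 fold change was −1.12 (SE 0.12, 95% interval −1.42 to −0.82, adjusted p = 0.000349, edgeR). Single libraries separated too, with 170 to 248 CPM in the 12 Nav-Tsc2 libraries and 274 to 715 in the 12 control libraries, so the highest Nav-Tsc2 library lay below the lowest control library. Of the satellite glia and nonmyelinating Schwann cell markers, S100b was the 1 called.

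Scn9a encodes Nav1.7, the threshold channel of nociceptors whose loss abolishes pain in people. It was at 647, 714, 552 and 656 CPM in control replicates 1 to 4. It was at 657, 532, 523 and 491 CPM in Nav-Tsc2 replicates 1 to 4. Nav-Tsc2 replicate 1 lay among the control mice and the other 3 Nav-Tsc2 mice below all of them. The log2 fold change was −0.22 (SE 0.11, 95% interval −0.50 to 0.05, adjusted p = 0.201, edgeR). A limma fit to the 24 separate libraries, in which mice were a random effect, gave −0.26 with an adjusted p of 0.0151, which is short of the fold threshold of 0.5. Together with its control mean of 642 ± 67.1 CPM (SD, n = 4), this made Scn9a a transcript that kept 85.8% of its control mean.

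Scn10a encodes Nav1.8, which carries most of the sodium current of the nociceptor action potential. Control replicates 1 to 4 had 510, 601, 780 and 791 CPM. Nav-Tsc2 replicates 1 to 4 had 595, 658, 577 and 600 CPM. The Nav-Tsc2 mice all lay between the lowest and the highest control mouse. The log2 fold change was −0.14 (SE 0.14, 95% interval −0.48 to 0.20, adjusted p = 0.526, edgeR).

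Scn11a encodes Nav1.9, a channel with a slow, persistent current near the resting potential. Its levels were 179, 233, 501 and 409 CPM in control replicates 1 to 4. They were 348, 320.5, 344 and 319 CPM in Nav-Tsc2 replicates 1 to 4. The means were alike, at 330.4 ± 150.4 CPM and 333 ± 15.3 CPM (SD, n = 4), but the control mice spread over 2.80-fold with both males below and both females above every Nav-Tsc2 mouse. Without library A of control replicate 3 that mouse was at 424 CPM, the control mean was 311 ± 123 CPM (SD, n = 4) and the log2 fold change was 0.09 (adjusted p = 0.834, edgeR). The log2 fold change was 0.01 (SE 0.28, 95% interval −0.67 to 0.69, adjusted p = 0.984, edgeR). The interval reaches beyond the threshold of 0.5 on both sides, so a change of that size is not excluded in either direction.

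Scn2a encodes Nav1.2, an early channel of unmyelinated axons, and Scn3a encodes Nav1.3, which is abundant in the embryo and known to return in injured sensory neurons. Scn2a was at 36.0, 26.04, 34.0 and 20.1 CPM in control and at 27.4, 23.3, 33.6 and 28.9 CPM in Nav-Tsc2 replicates 1 to 4. Scn3a was at 17.03, 14.3, 8.97 and 10.1 CPM in control and at 15.6, 14.5, 7.77 and 15.7 CPM in Nav-Tsc2 replicates 1 to 4. Both genes overlapped widely between genotypes. The log2 fold change was −0.04 for Scn2a (95% interval −0.52 to 0.44, adjusted p = 0.923, edgeR) and 0.09 for Scn3a (95% interval −0.59 to 0.77, adjusted p = 0.869, edgeR). The nerve injury genes named above were higher in Nav-Tsc2 mice in 6 of 7 cases, while Scn3a was not called.

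**Figure D2:**
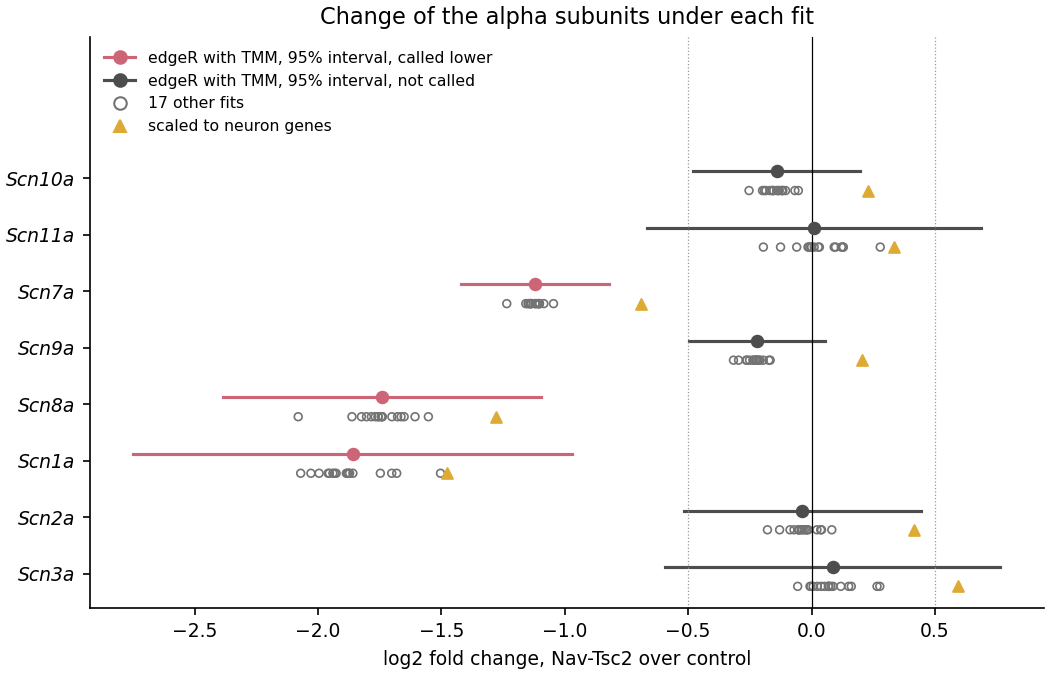
Log2 fold change of each alpha subunit, Nav-Tsc2 over control, with the edgeR estimate and its 95% interval (filled circles and lines), 17 other fits (open circles) and the fit scaled to neuron markers (triangles). Dotted lines mark −0.5 and 0.5, and Scn7a, Scn8a and Scn1a lie left of −0.5 in every fit, Scn7a at −0.69 when scaled to neuron markers.

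Near-identical exons can split reads between paralogs. Of the distinct stretches of 50 bases, the read length, in the annotated transcripts of a gene, 4.03% in Scn1a, 5.62% in Scn2a, 6.49% in Scn3a and 4.04% in Scn9a also occurred in another member, against 0.0374% in Scn8a. Scn7a, Scn10a and Scn11a shared none with another member. Reads from shared stretches map to several places and were left out by the counting in both genotypes.

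To compare genes with one another, CPM was divided by the length of the union of annotated exons. In control mice Scn10a led at 84.2 ± 17.3 CPM per kilobase (SD, n = 4), followed by Scn7a at 61.8 ± 10.1, Scn11a at 55.7 ± 25.4 and Scn9a at 50.3 ± 5.25. The ranges of neighbours among these 4 overlapped, and with the longest transcript as the length Scn9a moved from the fourth to the second place. Scn8a at 5.74 ± 1.00 and Scn1a at 5.70 ± 2.51 CPM per kilobase came next, 8.76-fold below Scn9a and not separated from each other. Scn2a at 2.28 ± 0.58 and Scn3a at 1.01 ± 0.30 CPM per kilobase closed the order in all 4 control mice.

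In Nav-Tsc2 mice the order was Scn10a at 76.3 ± 4.40, Scn11a at 56.1 ± 2.58, Scn9a at 43.1 ± 5.71 and Scn7a at 28.4 ± 1.97 CPM per kilobase (SD, n = 4), and on this length the order held in each of the 4 mice without overlap of neighbours. With the longest transcript as the length, Scn11a at 56.4 ± 2.59 and Scn9a at 56.0 ± 7.41 CPM per kilobase (SD, n = 4) overlapped. Scn7a took the fourth place on both lengths in Nav-Tsc2 mice, and in control mice it was the second on exon union and the third on the longest transcript, with ranges that overlapped its neighbours. Scn2a at 2.22 ± 0.34 CPM per kilobase ranked above Scn8a at 1.72 ± 0.73 in 3 of 4 mice, and Scn1a at 1.57 ± 0.68 and Scn3a at 1.07 ± 0.30 followed with ranges that overlapped.

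The makeup of the summed alpha subunit level differed accordingly. The sum over the 8 genes was 267 ± 37.9 CPM per kilobase in control and 211 ± 7.03 in Nav-Tsc2 mice (SD, n = 4), with ranges of 224 to 309 and 205 to 220.4 that did not overlap. Nax took 23.6 ± 5.12% of it in control mice and 13.5 ± 0.88% in Nav-Tsc2 mice (SD, n = 4). Scn1a and Scn8a together took 2.95 to 5.20% in control and 1.01 to 2.42% in Nav-Tsc2 mice. The TTX-resistant pair Scn10a and Scn11a took 51.6 ± 9.70% in control and 62.9 ± 1.86% in Nav-Tsc2 mice (SD, n = 4), with ranges of 42.1 to 64.0% and 60.6 to 64.9% that overlapped through control replicate 3. These shares follow from the levels above and were not tested on their own. The sums depend on the TMM scaling, and sums scaled to neuron markers were not computed. Under that scaling the log2 fold changes of Scn10a, Scn11a and Scn9a were 0.23, 0.33 and 0.21, none called. Those of Scn7a, Scn8a and Scn1a were −0.69, −1.28 and −1.48. Set against Scn10a within the same mouse, Scn7a was at a mean log2 ratio per kilobase of −0.44 in control mice (range −1.04 to 0.01). In Nav-Tsc2 mice this ratio was −1.42 (range −1.61 to −1.30), so the ranges did not overlap. Whether both transcripts came from the same cells cannot be told from bulk libraries.

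**Figure D3:**
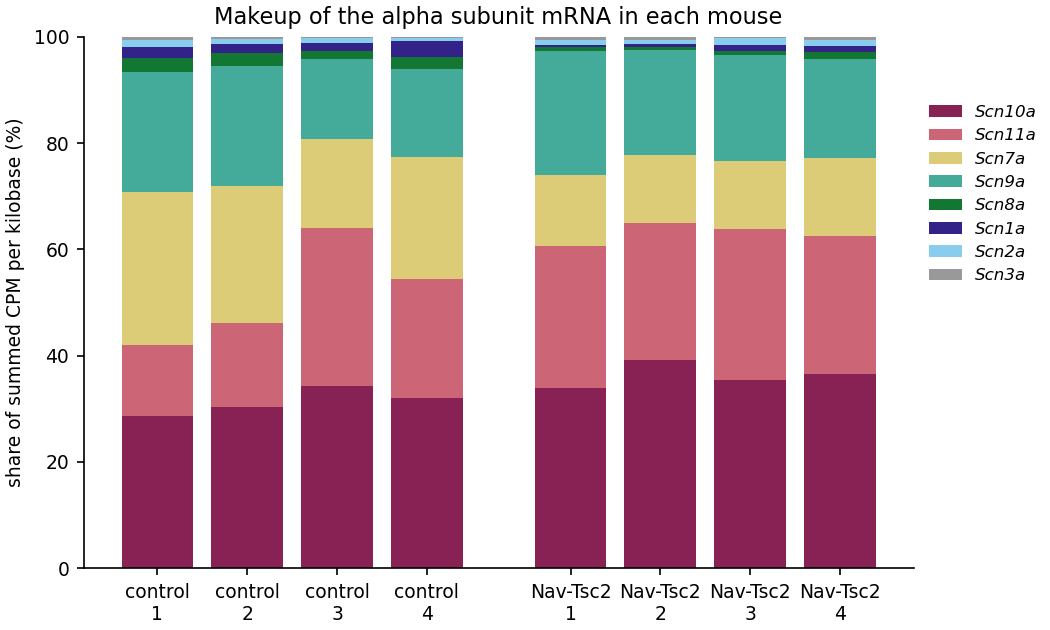
Share of each alpha subunit in the summed CPM per kilobase of exon, in percent, for each of 4 control and 4 Nav-Tsc2 mice. Scn7a (yellow) takes 16.7 to 28.7% of the bar in control mice and 12.9 to 14.8% in Nav-Tsc2 mice.

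The 3 libraries of a mouse, each of 100 other cells, were compared for each transcript. Their spread holds the draw of cells, amplification and counting together, which cannot be told apart here. Scn9a and Scn10a varied little, with median coefficients of variation (CV) between the libraries of a mouse of 9.80% and 9.34%, close to the 9.63% and 9.83% of genes of like level. Scn1a stood out with a CV of 58.8% against 17.1% for 2061 genes of like level, and its libraries ran from 9.27 to 195 CPM in control and from 2.87 to 34.3 CPM in Nav-Tsc2 mice. Scn8a had a CV of 24.2% against 15.1%, Scn11a 20.6% against 10.5% and Scn7a 17.2% against 10.5%. Scn2a at 14.8% and Scn3a at 25.8% were below genes of like level (19.8% and 27.8%). The raw counts of Scn1a ran from 40 to 2600 per library. Reads were amplified by PCR without molecular identifiers, so counts are not independent molecules.

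**Figure D4:**
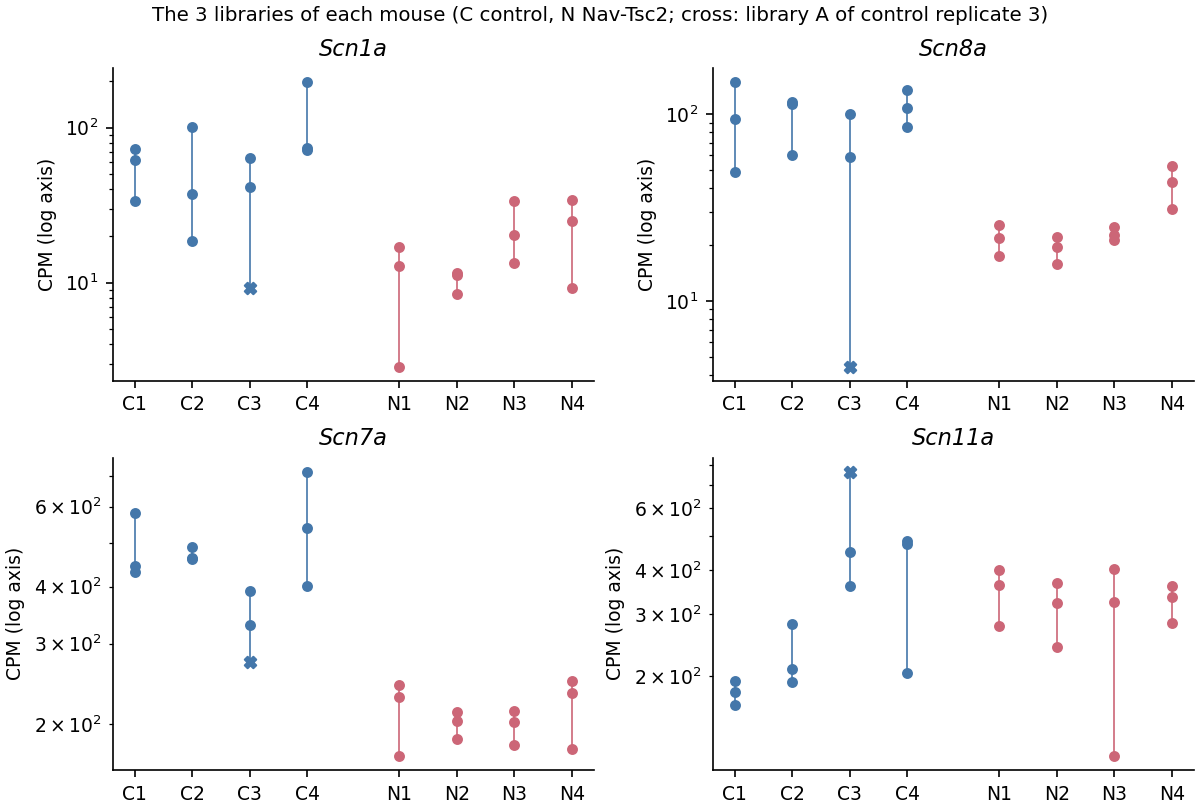
CPM on a log axis of Scn1a, Scn8a, Scn7a and Scn11a in the 3 libraries of 4 control mice (C1 to C4, blue) and 4 Nav-Tsc2 mice (N1 to N4, red), with lines joining the libraries of a mouse and a cross on library A of control replicate 3. Scn7a separates the genotypes library by library (170 to 248 against 274 to 715 CPM), and the cross is the lowest Scn8a value (4.44 CPM) and the highest Scn11a value (763 CPM).

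Which alpha subunits varied together was described from these libraries, as log2 CPM minus the mean of the mouse, which removes the difference between genotypes. The points share depth and the makeup of each draw of cells, so the values describe 24 libraries and carry no test. Over the 28 pairs, Scn10a and Scn11a went together most closely (r = 0.88 over 24 libraries, 0.91 in control and 0.86 in Nav-Tsc2 libraries, and 0.87 without library A of control replicate 3). The Nav-Tsc2 value leans on library B of Nav-Tsc2 replicate 3, the smallest library. It was the lowest of all 24 for both genes, at 349 CPM of Scn10a and 119 CPM of Scn11a. Libraries A and C of that mouse had 654 and 526 CPM of Scn10a and 404 and 325 CPM of Scn11a. The value without library B was not computed. Scn1a and Scn8a had r = 0.66, of which 0.54 was left without library A of control replicate 3. Scn7a went with Scn8a (r = 0.58, and 0.67 without that library) and with Scn1a (r = 0.58, and 0.51 without it). So the 3 genes lower in Nav-Tsc2 mice had positive values with one another, while each had a negative value with Scn10a and with Scn11a over the 24 libraries. Most of these negative values were smaller without library A of control replicate 3, with Scn8a and Scn11a going from −0.39 to −0.13, Scn1a and Scn11a from −0.24 to −0.06, Scn7a and Scn10a from −0.35 to −0.22 and Scn7a and Scn11a from −0.47 to −0.39. Within Nav-Tsc2 libraries alone, Scn1a and Scn8a had r = 0.28 and Scn1a had r = 0.44 with Scn10a, and without library A of control replicate 3 that pair had r = 0.12 over 23 libraries. The opposite movement of Scn8a and Scn10a (r = −0.47) was nearly gone without that library (r = −0.02).

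**Figure D5:**
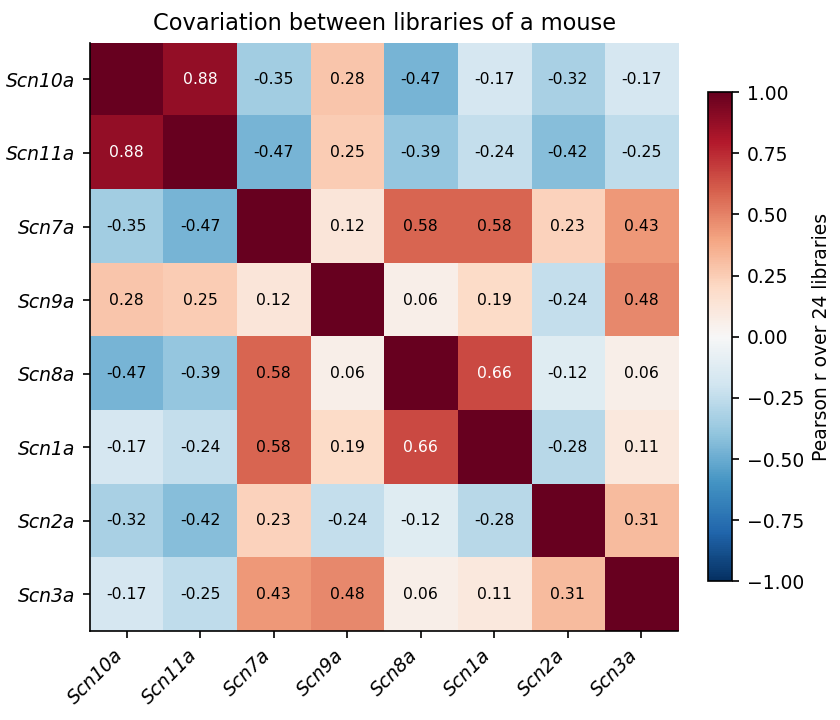
Pearson r between alpha subunits over 24 libraries, from log2 CPM minus the mean of the mouse, with red for positive and blue for negative values. The darkest pair is Scn10a with Scn11a (0.88), and Scn1a, Scn8a and Scn7a form a second red group (0.58 to 0.66).

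The genes most like each member were sought among 6376 genes with a mean of at least 20 CPM. For Scn1a they were Kcnt2, a sodium-activated potassium channel (r = 0.89), Gdf11, a secreted growth factor (r = 0.85), and Pou4f3, a transcription factor of sensory cells (r = 0.84). All 3 were lower in Nav-Tsc2 mice, with log2 fold changes of −2.09, −0.88 and −2.04. For Scn8a they were Fxyd7, a regulator of the sodium pump (r = 0.95), and the surface protein gene Thy1 (r = 0.94), and these values were 0.83 and 0.70 without library A of control replicate 3. Of these Fxyd7 was lower in Nav-Tsc2 mice, and Thy1 (log2 fold change −0.20) was not called. For Scn7a they were Lars2, a mitochondrial tRNA synthetase (r = 0.80), Ttc3, a ubiquitin ligase (r = 0.76), and Gm15564 (r = 0.75).

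Scn10a and Scn11a shared Dgkz, a diacylglycerol kinase, as their nearest gene (r = 0.89 and 0.92), and each had the other second (r = 0.88). Next came Ppp1r2, an inhibitor of protein phosphatase 1, for Scn10a (r = 0.88) and Cadm1, an adhesion molecule, for Scn11a (r = 0.87). Scn9a was most like Zfp248 (r = 0.85), Amigo3 (r = 0.81) and Asb6 (r = 0.79), Scn2a most like Mad2l2 (r = 0.76), Cdc27 (r = 0.74) and Mrpl3 (r = 0.73), and Scn3a most like Uchl3, Hddc2 and Psmg3 (r = 0.79, 0.79 and 0.78). Against the marker lists, Scn11a went with the mean of the nonpeptidergic nociceptor markers (r = 0.66 over 24 libraries, 0.68 in control and 0.90 in Nav-Tsc2 libraries). Scn8a went with the mean of the neuron markers (r = 0.69), at 0.72 in control and 0.30 in Nav-Tsc2 libraries. Scn1a did so too (r = 0.64, with 0.70 in control and 0.74 in Nav-Tsc2 libraries). Scn10a and Scn11a had negative values with the neuron markers (r = −0.57 and −0.58), at 0.07 and −0.35 in Nav-Tsc2 libraries. Values for marker lists without library A of control replicate 3 were not computed. Nor were they computed without library B of Nav-Tsc2 replicate 3, which held the lowest Scn10a and Scn11a values.

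Whether the change of a member differed between the sexes was tested as an interaction on all genes. None of the 8 passed at adjusted p under 0.05 in edgeR, and 1 of 17178 genes did, with 1583 genes at an unadjusted p under 0.05. Scn1a, Scn8a and Scn7a were lower in both sexes, with log2 fold changes of −2.24 and −1.65 for Scn1a, −2.21 and −1.36 for Scn8a and −1.18 and −1.06 for Scn7a in males and females. Scn11a had the lowest p of the members. Its males went from 179 and 233 CPM in control to 348 and 320.5 CPM in Nav-Tsc2 mice, and its females from 501 and 409 to 344 and 319 CPM. The male minus female log2 fold change was 1.16 (SE 0.22, p = 0.000821, adjusted p = 0.183, edgeR), and 1.02 (adjusted p = 0.179, edgeR) without library A of control replicate 3. Scn10a gave 0.59 (SE 0.15, p = 0.00519, adjusted p = 0.304, edgeR). Markers of nociceptor types moved with these values among the control mice. The summed nonpeptidergic markers were at 374 and 381 CPM in the 2 control males and 1174 and 1021 CPM in the 2 control females, against 1188 to 1380 CPM in Nav-Tsc2 mice. The summed peptidergic markers were at 17291 and 16873 CPM in the control males and 7202 and 7658 CPM in the control females. The part of nociceptor makeup in the level of Scn11a was not tested.

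The other genes of the sodium channel complex and of sodium handling were counted from a list of 32, all tested, of which 10 were lower and 1 was higher. Over all genes tested, 8.00% were called lower and 9.12% higher. The log2 fold changes of the 32 listed genes had a median of −0.39. Among beta subunits, the single-span partners that tune gating and adhere to neighbouring cells, 2 of 4 were lower. Scn2b went from 667 to 1664 CPM in control mice to 128 to 332 CPM in Nav-Tsc2 mice (log2 fold change −2.31, SE 0.34, adjusted p = 0.00162, edgeR). Scn3b went from 44.8 to 72.2 CPM to 16.2 to 28.1 CPM (log2 fold change −1.46, SE 0.20, adjusted p = 0.000990, edgeR). Neither range overlapped the other.

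Of the 4 fibroblast growth factor homologous factors, which bind the channel tail inside the cell and slow inactivation, Fgf12 was lower (614 to 1002 CPM in control and 55.8 to 187 CPM in Nav-Tsc2 mice, log2 fold change −2.54, SE 0.36, adjusted p = 0.00127, edgeR). The median over these 4 factors was 0.28 on the log2 scale, while their summed level was lower, at 2664 to 3313 CPM in control and 1538 to 1876 CPM in Nav-Tsc2 mice. Of 6 anchors and adhesion proteins of the initial segment and node, 3 were lower. Cntn1, the contactin that binds beta subunits, had a log2 fold change of −2.64 (318 to 674 and 35.0 to 124 CPM, adjusted p = 0.00166, edgeR). Nrcam, a cell adhesion molecule of the node, had −1.49 (25.7 to 62.0 and 12.5 to 20.8 CPM, adjusted p = 0.00413, edgeR). Nfasc, the node adhesion molecule neurofascin, had −0.84 with ranges that overlapped (25.6 to 51.6 and 17.1 to 26.6 CPM, adjusted p = 0.0257, edgeR). The Nfasc call was lost when control replicate 1 or 4 was left out, and likewise for Nav-Tsc2 replicates 1, 3 and 4, with adjusted p up to 0.0664 in edgeR. The ankyrins Ank2 and Ank3, which hold channels in the membrane, were not called.

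Of 4 trafficking proteins and ubiquitin ligases, 2 were lower. Nedd4, a ubiquitin ligase, had a log2 fold change of −0.66 (463 to 611 and 332 to 384 CPM, adjusted p = 0.00190, edgeR). Nedd4l had −0.39 (208 to 225 and 155 to 171 CPM, adjusted p = 0.00480, edgeR) and missed only the fold threshold. Dpysl2, which encodes the collapsin response mediator CRMP2, a trafficking partner of Nav1.7, had −0.50 (11756 to 15901 and 8567 to 11084 CPM, adjusted p = 0.0124, edgeR) and lay at the fold threshold, which it missed without control replicate 1 (−0.43) or 2 (−0.47), without Nav-Tsc2 replicate 2 (−0.49) or 4 (−0.44) and with sex as a covariate (−0.49). With a replicate block Dpysl2 was just short of it as well. Scaling to neuron markers ended the calls of Nfasc (−0.39), Nedd4 (−0.21), Dpysl2 (−0.07) and Unc80 (−0.45). In the sodium leak channel complex 1 of 4 was lower, the scaffold Unc80 at −0.90 (41.3 to 53.8 and 23.4 to 32.6 CPM, adjusted p = 0.00216, edgeR). Of 8 subunits and regulators of the sodium-potassium ATPase, the regulator Fxyd7 was lower at −1.52 (219 to 371 and 64.7 to 116 CPM, adjusted p = 0.00180, edgeR) and 1 was higher. Of the other alpha subunits on the list, none of 2 was called.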

How the data were processed

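RNA of sorted cells was amplified with a SMARTer Ultra Low kit, which does not keep the strand, and sequenced as single reads of 50 bases. The deposited files hold raw counts of reads per gene for each of 24 libraries, made by the authors with FastQC, STAR alignment to mm10 and HTSeq; the annotation release, the strand setting and the versions are not given in the sources used here. A further table of the authors' own comparison, with fold changes and p-values, was not used. The 3 libraries from each mouse were added together, giving 4 mice for each genotype and 47959617 to 61290435 counts for each mouse. Rows that name no gene were left out of library sizes and tests, and reads mapped to several places were a median of 38.6% in control and 40.6% in Nav-Tsc2 libraries. Gene names came from GENCODE on GRCm38, which matched 47224 of 47643 identifiers, 39106 of them with the same version, and upstream sequences from RefSeq.

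Genotypes were compared with edgeR 4.0.16 in R 4.3.3, with TMM scaling, filterByExpr (minimum count 10), the quasi-likelihood F-test and Benjamini-Hochberg adjustment over 17178 genes. Calls needed both an adjusted p under 0.05 and a change beyond 0.5 on the log2 scale. Intervals cover 95% and use 6 degrees of freedom. They give the uncertainty of the log2 fold change between the genotypes, with the SE taken from the F statistic, and not the spread of single mice. An interaction of genotype and sex was fitted on the same counts. The fits were tested on simulated data. Alternatives used DESeq2 1.42.0, limma 3.58.1, other scalings and filters, sex as a covariate, a replicate block and each mouse left out. An exact permutation test of 4 against 4 cannot go below 0.0286. Named were the 8 genes, Tsc2, the called genes of the partner lists (or the highest gene where none was called), the 3 genes most like each member over libraries and the highest gene of each marker list, with Nefh, Pvalb, Spp1, Fgf13 and Nedd4l added. A few genes that this rule names are not reported here. Members and lists were chosen with earlier results of these data known.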

Additional observations from a re-analysis of the deposited data

Results flagged for a closer look

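The values below stood out by fixed rules. Scn1a in control replicate 4 was at 105 CPM, far from the other 3 control mice at 45.5 to 53.6 CPM, with a gap of 0.865 of the range of the group, past Dixon's critical value at 95% for 4 samples. Scn3a in Nav-Tsc2 replicate 3 was at 7.77 CPM, below the other 3 Nav-Tsc2 mice at 14.5 to 15.7 CPM, with a gap of 0.852 of the range. Of 16 groups of 4 mice looked at, 2 passed this limit and chance would give 0.8.

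Scn11a was higher in both Nav-Tsc2 males than in both control males and lower in both Nav-Tsc2 females than in both control females. The male minus female difference in log2 fold change was 1.16, and the interaction test in edgeR did not pass after adjustment over all genes (adjusted p = 0.183).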

How the results depend on the processing

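Scn1a, Scn8a and Scn7a were called lower and no member higher in each of 19 alternatives. Their log2 fold changes ran from −2.07 to −1.48, from −2.08 to −1.28 and from −1.24 to −0.69, with highest adjusted p of 0.0326, 0.0218 and 0.0452, each with scaling to neuron genes. That scaling gave 445 genes lower and 2677 higher, 6 partners lower and 3 higher, a median of the 8 members of 0.22 and log2 fold changes of 0.41 for Scn2a, 0.21 for Scn9a and 0.23 for Scn10a, where the main values were below 0. The median of all genes moved with it from 0.01 to 0.42, so the shift was not particular to these members. From control to Nav-Tsc2 mice the mean of Map1b went from 19366 to 8765 CPM. The mean sum of the 9 neuron markers went from 36250 to 26381 CPM. The lower sum was thus mostly Map1b, itself called lower, so this scaling rests largely on 1 gene. The cause of the lower Map1b level was not tested. Partners called higher numbered 1 in the main fit, 2 with DESeq2, 3 when sex was a covariate, 4 when mice were a random effect and 1 to 2 when a mouse was left out, with 2 without control replicate 1, 3 or 4. Around 0, Scn2a was at 0.022 with libraries weighted equally, and Scn11a at −0.0018 with DESeq2, −0.014 with upper-quartile scaling and −0.060 with libraries weighted equally. Leaving out each mouse moved Scn2a from −0.18 to 0.082, Scn3a from −0.056 to 0.28 and Scn11a from −0.20 to 0.28.

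The same replicate numbers in both genotypes gave correlations of deviations of 0.135, 0.139, 0.0751 and 0.142 over 10185 genes, so replicate 3 was under 0.1 and the numbers were not taken to pair mice. With a replicate block, 3 members were lower and none higher, their median was −0.17, 1116 genes were lower and 1329 higher, and 10 partners were lower and 1 higher. Leaving out library A of control replicate 3, an alternative chosen after seeing the data, gave 1465 genes lower and 1660 higher. No member passed the interaction of genotype and sex without that library either. All members had reads in every library, as few as 40 for Scn1a.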
